A study of Mus musculus with 3 samples.

Results

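Actb, Actg1, Coro1a, Myh9, Plec, Pfn1 and Myl12b encode actins, actin-binding proteins, non-muscle myosin subunits and plectin, and the peaks described here are those that Tet2 pull-down gave in the RNA of these 7 genes. A peak belonged to a gene when its midpoint lay in the gene's annotated span on the mouse build mm10, which gave 84 peaks of 8196 in all. The genes were chosen by the peaks they carried in these same libraries, so their peak numbers and heights are given as descriptions, with no test. The cells were mast cells derived from the bone marrow of C57BL/6 mice, grown for 4 to 6 weeks with interleukin-3 at 10 ng/ml and stem cell factor at 5 ng/ml and carrying FcεRI and c-Kit on their surface. Living cells were cross-linked with ultraviolet light at 400 and then 200 mJ per square cm, the RNA was cut with RNase I, and endogenous Tet2 was pulled down with an antibody (cross-linking and immunoprecipitation, CLIP). All 3 libraries are marked as biological replicates of that 1 group, though the labels name no separate animals. No input, control-antibody or Tet2-deficient library and no RNA level was analysed here, so Tet2 binding and the abundance of an RNA cannot be told apart.

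Actin monomers assemble into filaments whose growth, branching and turnover are set by monomer-binding proteins such as profilin and by filament-binding proteins such as coronins. Non-muscle myosin II, made of heavy chains and regulatory and essential light chains, pulls on these filaments, and plectin ties them to intermediate filaments and to the membrane. In mast cells a cortical actin layer lies under the plasma membrane and is rearranged when granules are released. Tet2 is an enzyme that oxidises 5-methylcytosine, best known for its action on DNA.

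Peak heights are given in height units. The deposited heights of each list add up to 1, and every height is a multiple of a step that is called 1 unit here. No source used here says if a unit is a read, and sequencing depth is unknown. The libraries held 3019, 2800 and 2377 peaks in replicates 1, 2 and 3, with a median height of 4 units in each and lowest listed heights of 2, 2 and 3 units. A gene without a listed peak may therefore still have signal below these heights. Of 13 mast cell markers, 7 carried a peak, among them Kit, Gata2, Cpa3 and Hdc, while Fcer1a, Ms4a2 and Fcer1g carried none. Markers of neutrophils (0 of 6), lymphocytes (0 of 6) and erythroid cells (0 of 5) carried none, and macrophage markers carried 1 peak of 3 units, in Adgre1. Of all 21900 protein-coding genes, 14.1% carried a peak in at least 1 library. With so few markers per cell type, these low counts are near that share and do not show that such cells were absent. Of 5 fibroblast markers, the collagen genes Col1a1, Col1a2 and Col3a1 had peaks in every library, with summed heights over the list of 59, 34 and 39 units, while Pdgfra and Dcn had none. The recorded purity of the cells was at least 97.5% for all 3 libraries. The part of other cell types in the cytoskeletal peaks was not tested.

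The 7 genes held 28, 31 and 25 peaks in replicates 1, 2 and 3 (mean 28, SD 3, n = 3). These peaks took 0.838%, 0.980% and 0.797% of the summed height of the libraries, or 0.872% ± 0.0959 (SD, n = 3). In 6 of the 7 genes every library held a peak, the exception being Myl12b, and 3.16% of all 21900 protein-coding genes did so. By library, 6, 7 and 6 of the 7 genes held a peak in replicates 1, 2 and 3, where 8.55%, 8.04% and 7.02% of protein-coding genes did. Plec had the most peaks in replicates 1 and 2, Myh9 had the most in replicate 3, and Actb had the tallest in every library. Member peaks had a median height of 4 units, as did other peaks in protein-coding spans, and a median width of 40.5 nt against 55 nt.

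**Figure D1:**
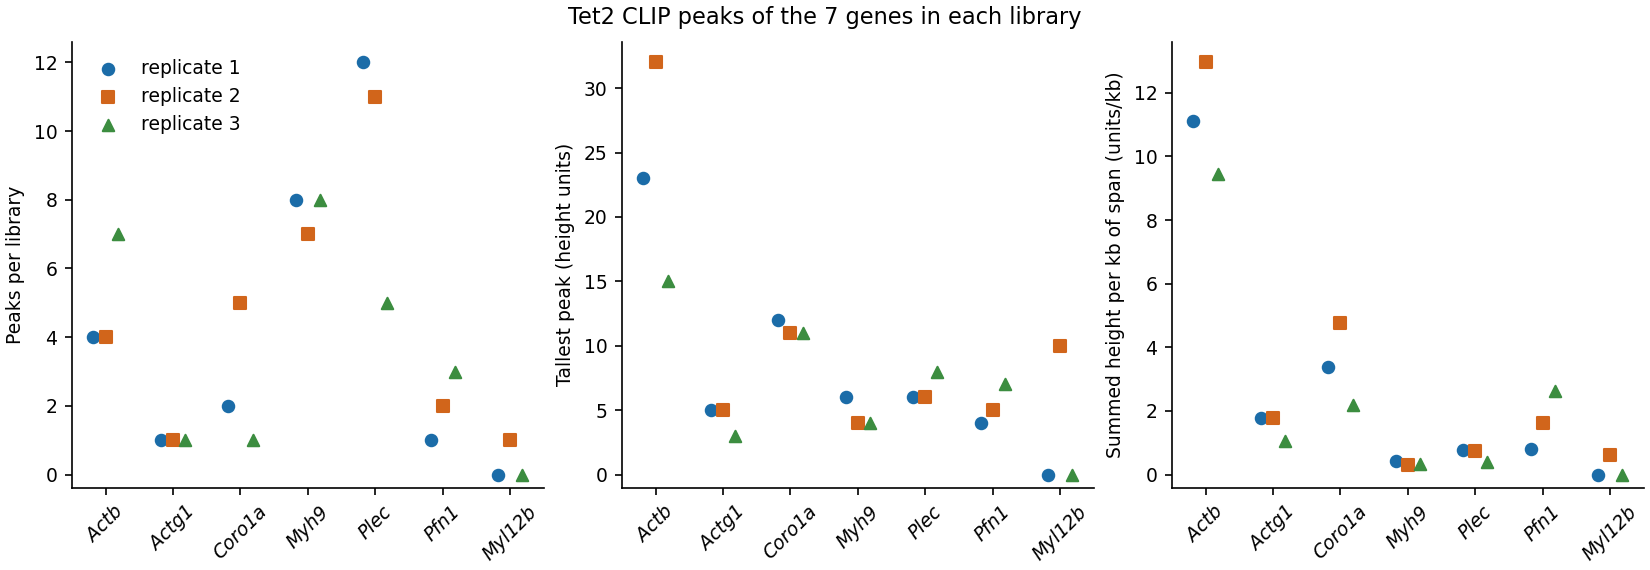
Number of peaks, tallest peak in height units and summed height per kb of gene span for each of the 7 genes, with 1 point per library (circles, squares and triangles for replicates 1, 2 and 3). Plec has the most peaks in replicates 1 and 2 and Myh9 in replicate 3, Actb leads in tallest peak and in height per kb in every library, and Myl12b has a peak in replicate 2 alone.

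Actb encodes beta-actin, the main cytoplasmic actin together with the gamma-actin of Actg1. Its span (chromosome 5, 142903115 to 142907976) held 4, 4 and 7 peaks in replicates 1, 2 and 3, with summed heights of 54, 63 and 46 units. This came to 0.308% ± 0.0330 (SD, n = 3) of a library, the highest share of the 7 genes. The tallest site lay at 142905598 to 142905627 and reached 23, 32 and 15 units. All 3 libraries had a peak there with the same first base, and the peaks were 13, 10 and 30 nt wide. A neighbouring site at 142905475 to 142905476, only 2 nt wide and with the same bounds in both libraries, reached 18 units in replicate 2 and 10 units in replicate 3. Replicate 1 instead had a peak of 13 units at 142905443 to 142905468, which stopped short of that site without overlap.

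Farther along the Actb span, a site at 142906511 to 142906551 reached 13 units in replicate 1 and 5 units in replicate 3. Replicate 2 had no peak there and stood at 10 units at 142906652 to 142906673, where replicate 3 had 5 units. The other Actb peaks were of 3 to 5 units and each came from a single library. All 15 peaks lay between 30.9% and 73.0% of the way along the span, so neither end of the span held any. The long non-coding gene Gm38733 overlaps the low-coordinate end of Actb, and no Actb peak lay in the overlap.

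Actg1 encodes cytoplasmic gamma-actin, whose protein is nearly identical to beta-actin. It held 1 peak in each library, of 5, 5 and 3 units (chromosome 11, 120348219 to 120348302). The peaks of replicates 1 and 2 overlapped and that of replicate 3 lay just beyond, so all 3 fell within 84 nt. On the minus strand, their midpoints were 211 to 262 nt downstream of the annotated transcription start at 120348495. The share of library height was 0.0243% ± 0.00424 (SD, n = 3), and in each library it was below the share of Actb. The microRNA gene Mir6935 lies inside Actg1 and held no peak. No source used here says how reads that match both actin genes or other copies were placed.

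Coro1a encodes coronin-1A, an actin-binding protein of blood cells that acts with the Arp2/3 complex. It held 2, 5 and 1 peaks with tallest heights of 12, 11 and 11 units, which differ by at most 1 unit. These 3 tall peaks lay within 78 nt (chromosome 7, 126700335 to 126700412), toward the end of the gene far from its start. The peaks of replicates 1 and 3 overlapped there, while the peak of replicate 2 lay beside them. A low site at 126701790 to 126701811 had 5 units in replicate 1 and 3 units in replicate 2. The other Coro1a peaks came from replicate 2 alone, at 3 or 4 units.

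The peak of replicate 2 at 126704465 to 126704543 (3 units) was the only member peak that touched a listed start window, meaning 250 bases before to 50 after an annotated start. Of all 8196 peaks, 607 (7.41%) touched such a window. Actb and Plec have no listed start, so their 15 and 28 peaks could not touch a window of their own gene. The single member peak is therefore not to be read as a shortage at starts. It is shown because it is the only stretch under a member peak whose bases are in the RefSeq tables used here. The stretch runs from chr7:126704441-126704470 on the minus strand of GRCm38.p6 (mm10 coordinates), with the 6 bases under the peak in capitals. Those 6 bases lie 245 to 250 nt upstream of a second annotated Coro1a start and inside the span that begins at the outer start.
Coro1a: CGAGGGagttcgaaggggcaagtaggtccc

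Pfn1 encodes profilin-1, which binds actin monomers and feeds them to growing filaments. It held 1, 2 and 3 peaks with tallest heights of 4, 5 and 7 units. A site at chromosome 11, 70653827 to 70653929 was present in every library at 4, 3 and 3 units, with the same bounds in replicates 1 and 2. Replicate 2 alone had 5 units at 70654358 to 70654397, and replicate 3 alone had 7 units at 70654481 to 70654527. All 6 Pfn1 peaks also lay in the span of Eno3, the gene of a muscle enolase on the opposite strand, and the peak lists carry no strand. Of all peaks, 6.84% lay in over 1 gene span. By position, 5 of the 6 lay downstream of the annotated Pfn1 start at 70654650. The Eno3 span begins at 70653125, below all 6 peaks, and its listed start, at 70657176, lies above them, so the peaks cannot be credited to either gene. Outside the span of Pfn1, 669 to 684 nt beyond its low-coordinate end, a site in Rnf167, a ubiquitin ligase gene, reached 17, 16 and 14 units, more than any peak inside Pfn1. Within 3 kb of the 7 spans, the only other peak was 1 of 3 units in replicate 3, located 406 nt outside Actg1 in 0610009L18Rik.

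Myh9 encodes the heavy chain of non-muscle myosin IIA, the motor subunit of the actomyosin machinery of most blood cells. Its span of 81.6 kb (chromosome 15, 77760585 to 77842175, minus strand) held 8, 7 and 8 peaks, with summed heights of 34, 24 and 26 units. The number of peaks was nearly equal in the libraries, and each was low, with a tallest height of 6, 4 and 4 units. Of the 23 peaks, 13 stood at 3 units. A site at 77763792 to 77763851 had the same first and last base in all 3 libraries, at 5, 3 and 3 units. Another, at 77793282 to 77793311, reached 3, 4 and 4 units. Replicates 1 and 2 also shared sites with the same bounds at 77776966 to 77776999 (4 and 3 units) and 77777768 to 77777799 (5 and 3 units).

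Peaks of Myh9 gathered at the end of the gene far from its start. The last 10% of the span, counted from the annotated start, held 5 of 8, 4 of 7 and 3 of 8 peaks, or 52.4% ± 13.2 (SD, n = 3). Other protein-coding genes with a listed start and a span of at least 10 kb had 14.05% ± 1.02 (SD, n = 3) of their peaks in that last 10%, over 4866 peaks of 1985 genes. In the 10% next to the start Myh9 had 0 peaks, against 35.2% ± 1.09 (SD, n = 3) in the other genes. The peak nearest the start ended 37342 nt from it. These are values of 1 gene with few peaks, exons were not analysed here, and no test was made.

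**Figure D2:**
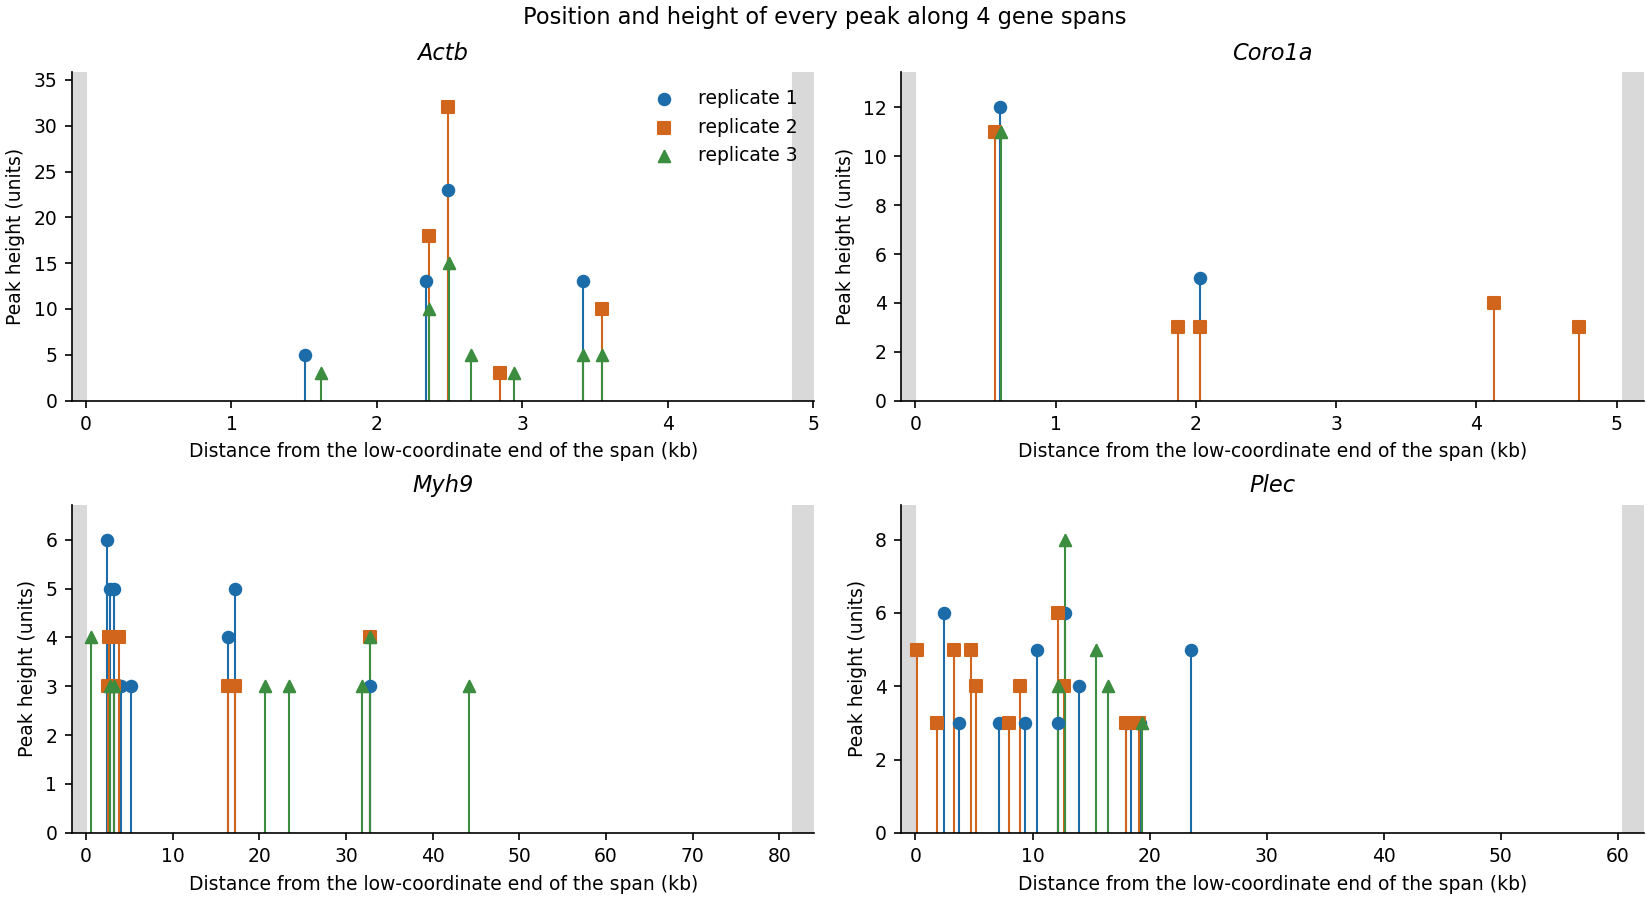
Every peak of Actb, Coro1a, Myh9 and Plec, placed by the distance of its midpoint from the low-coordinate end of the gene span (kb) and drawn to its height (units), with symbols for replicates 1, 2 and 3 and grey beyond the span. Coro1a and Myh9 run from right to left. The tallest Actb site and the tall Coro1a site recur at nearly the same place in all 3 libraries, and the upper parts of the Myh9 and Plec spans hold no peak.

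Plec encodes plectin, a very large plakin that links intermediate filaments to actin, microtubules and adhesion sites. It held 12, 11 and 5 peaks (chromosome 15, 76170974 to 76231378), and its summed heights were 47, 45 and 24 units. Its 28 peaks were the 6th highest number among the 3086 protein-coding genes with a peak, where the median was 2 and the highest 36. No Plec peak was tall, with a maximum of 6, 6 and 8 units. All 28 lay in a stretch of 23.4 kb, between 0.283% and 39.0% of the way from the low-coordinate end, and the other 36.8 kb of the span held none. The strand of Plec is not in the tables used here, so the end nearest its start is not named. The microRNA gene Mir1942 lies in the part without peaks.

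Most sites of Plec were found in a single library. Its peaks formed 23 loci of overlapping peaks, of which 20 were found in 1 library, 1 in 2 libraries and 2 in all 3. For Myh9 the same counts were 15 loci, with 9 in 1 library, 4 in 2 and 2 in all 3. For Actb they were 10 loci, with 6, 3 and 1. The Plec loci of all 3 libraries lay close together, at 76183115 to 76183195 (3, 6 and 4 units) and at 76183672 to 76183738 (6, 4 and 8 units). At 76183115 to 76183195 the peak of replicate 1 bridged those of replicates 2 and 3, and at 76183672 to 76183738 the peak of replicate 2 bridged those of replicates 1 and 3, so neither locus had a base common to all 3 peaks. A site of only 2 nt at 76188992 to 76188993 stood at 3 units in replicates 1 and 2.

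Myl12b encodes a regulatory light chain of non-muscle myosin II, whose phosphorylation switches the motor on. It held 1 peak, of 10 units, in replicate 2, and none in replicates 1 and 3. The peak lay at chromosome 17, 70976731 to 70976793, and its midpoint was 13754 nt downstream of the annotated start on the minus strand. It was the only member peak of 10 units or more with no counterpart within 200 nt in either other library.

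Per length of span, introns included, the summed height was 11.2 ± 1.75 units per kb in Actb, 3.44 ± 1.29 in Coro1a, 1.68 ± 0.910 in Pfn1 and 1.54 ± 0.411 in Actg1 (SD, n = 3). It was 0.640 ± 0.211 units per kb in Plec, 0.343 ± 0.0649 in Myh9 and 0.201 ± 0.349 in Myl12b (SD, n = 3). In this order the values of Actb lay above those of Coro1a in every library, and those of Actg1 (1.07 to 1.78) lay above those of Plec (0.397 to 0.778). The ranges of all other neighbours in the order overlapped. Within each library Plec still lay above Myh9, at 0.778 and 0.417, 0.745 and 0.294, and 0.397 and 0.319 units per kb. Actb ranked 13th of the 3086 protein-coding genes with a peak, and the median of those genes was 0.0783 units per kb. Plec and Myh9, with the longest spans of the 7 genes, lay below Actb, Coro1a, Pfn1 and Actg1 in mean height per kb. Both lay above Myl12b, whose span is shorter, and above that median of genes with a median span of 29151 nt.

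Most tall peaks of these genes had a peak of both other libraries within 200 nt, and few of them overlapped in all 3. The 84 peaks formed 61 loci, of which 6 (9.84%) held a peak of every library, 11 of 2 libraries and 44 (72.1%) of 1 library. Over the whole series, 11.1% of loci held a peak of every library. Per library, 16.7% ± 1.04 (SD, n = 3) of member peaks overlapped a peak of both other libraries by at least 1 nt, against 22.3% ± 2.75 (SD, n = 3) of other peaks in protein-coding spans. Among member peaks of 10 units or more, 3 of 12 (25%) did so, against 377 of 581 (64.9%) elsewhere, and median widths were 13.5 nt and 24 nt. When midpoints within 200 nt counted instead, the numbers became 11 of 12 (91.7%) and 532 of 581 (91.6%). The 11 peaks were those of Actb and Coro1a, and the exception was Myl12b. Among the 11, the Actb peak of 13 units at 142906511 to 142906551 matched replicate 2 only through the neighbouring site at 142906652 to 142906673. Likewise, the peak of 10 units of replicate 2 at that neighbouring site matched replicate 1 only through the former. Member peaks of 2 to 4 units were found by overlap in 10 of 49 cases (20.4%), against 521 of 4596 (11.3%). At 5 to 9 units the numbers were 1 of 23 (4.35%) and 661 of 1880 (35.2%) by overlap, and 10 of 23 (43.5%) and 824 of 1880 (43.8%) within 200 nt. Over all heights, the 200 nt rule gave 35 of 84 member peaks (41.7%) and 2057 of 7057 others (29.1%), the reverse of the order by overlap. These peaks come from 7 genes and share their sources, so no test was made.

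**Figure D3:**
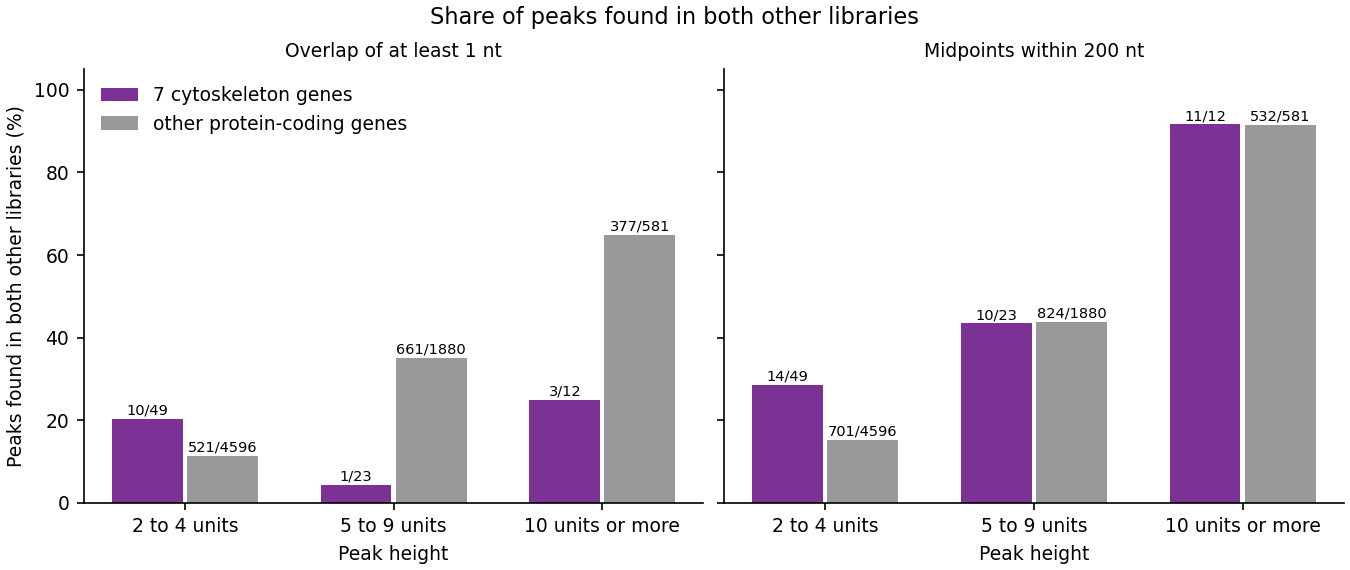
Share of peaks (%) found in both other libraries, by peak height, for the 7 cytoskeleton genes (purple) and the other protein-coding genes (grey), with overlap of at least 1 nt on the left and midpoints within 200 nt on the right; numbers over the bars are peaks found of all peaks. For peaks of 10 units or more the bars stand at 25% and 64.9% by overlap and at 91.7% and 91.6% within 200 nt.

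With peaks within 100 nt joined, 10 sites of the 7 genes held a peak of every library. Of these, 3 were in Myh9, 2 each in Actb and Plec, and 1 each in Actg1, Coro1a and Pfn1. At the Coro1a site the largest peak took 0.0625%, 0.0602% and 0.0713% of the library height in replicates 1, 2 and 3, and at the tallest Actb site 0.120%, 0.175% and 0.0972%.

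Outside Myh9, few member peaks lay in the outermost 5% at either end of the gene span. Within 5% of either end of the span, its outer 10%, lay 17.9%, 19.4% and 12.0% of member peaks in replicates 1, 2 and 3 (16.4% ± 3.89, SD, n = 3), against 35.2% ± 1.05 (SD, n = 3) of other peaks in protein-coding spans. All 14 such member peaks were in Myh9 (11 of its 23 peaks) and Plec (3 of its 28 peaks). The other 5 genes had none there. Of these, Actg1, Actb, Pfn1 and Coro1a have spans of 2809 to 5043 nt, so 5% is a short stretch. The median span of protein-coding genes with a peak was 29151 nt, and the compared genes were not matched for length. The Actg1 peaks, with midpoints 211 to 262 nt downstream of its start, thus fell outside the outer 10%.

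Other genes of the actin cytoskeleton were taken from a list of 150 genes in 14 roles. In at least 1 library 66 of them (44%) carried a peak, against 14.1% of all protein-coding genes. In replicates 1, 2 and 3 the numbers were 39, 46 and 39 of the 150, against 8.55%, 8.04% and 7.02% of all protein-coding genes. In every library 20 of the 150 (13.3%) carried a peak, against 3.16% of all protein-coding genes. A locus held by all 3 libraries was present in 12 genes (8%), and in 2.11% of all protein-coding genes. The median of the tallest peak of the 66 genes was 4 units, as it was over all protein-coding genes with a peak, and the highest was 19 units. Earlier results on an overlapping list were known when this list was drawn up, so its share is not independent evidence.

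Few genes of the same families as the actins, myosin chains and profilin were available to compare, and their shares are to be read against the 14.1% of all protein-coding genes. None of the 5 other actin isoform genes, which include the muscle actins, held a peak, and neither did any of the 6 other chains of non-muscle myosin II, Myh10, Myh14, Myl6, Myl6b, Myl9 and Myl12a. With so few genes, these counts are near that share. They also leave out Actb, Actg1, Myh9 and Myl12b, which were set apart because of their peaks. Monomer-binding proteins had 2 of 12 genes with a peak (16.7%), also near it, Twf1 (4, 0 and 0 units) and the filament-severing cofilin Cfl1 (0, 0 and 3 units). Among 6 other coronins, 3 held peaks, led by Coro2a at 9, 8 and 6 units and Coro7 at 0, 3 and 7 units.

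Filament nucleation and turnover genes were represented in all 3 libraries. Each role holds few genes, and its count is to be read against the 14.1% of all protein-coding genes with a peak. Of 9 subunits of the Arp2/3 complex, which starts filament branches, 6 held a peak, and Arpc1b (7, 4 and 3 units) was the only one with a peak in every library. Arpc2 reached 5 units in replicate 2. Nucleation promoting factors and formins had 8 of 18, led by Wasf2 (8, 0 and 0 units) and the formin Diaph1 (4, 5 and 3 units). Capping and severing proteins had 5 of 10. In this role Scin, which encodes the severing protein scinderin, reached 19, 12 and 12 units, the tallest of the 150 genes, and Add1 reached 5, 6 and 6 units. Scin, Add1, Arpc1b and Diaph1 had a peak in every library but no locus of overlapping peaks held by all 3 libraries. Crosslinking and bundling proteins had 5 of 12, with Fscn1, encoding fascin, at 4 units in each library and Actn4 at 3 units in replicate 3. Tropomyosins and their capping proteins had 3 of 6, with Tpm2 at 4, 4 and 6 units and Tmod1 at 3, 3 and 0 units.

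Regulators of myosin had 7 of 11 genes with a peak, and this and the next counts are again to be read against 14.1%. Rock1, a kinase that raises light chain phosphorylation, reached 10, 8 and 8 units, and the GTPase gene Rhoa, which activates it, reached 9, 5 and 6 units. Both had a locus held by all 3 libraries, as did 12 of the 150 genes and 2.11% of all protein-coding genes. Among the named genes, Coro2a, Fscn1, Tpm2, Arhgdia, Macf1, Lmna, Fermt3 and Vcl also had one. Rac2 had a peak in every library but no such locus. Unconventional myosins had 5 of 11, and Myo18a held 0, 6 and 2 peaks with tallest heights of 0, 4 and 4 units, while Myo9b stood at 4, 4 and 0 units. Rac and Cdc42 switches had 5 of 14, led by Arhgdia with 5, 3 and 2 peaks of up to 7, 5 and 4 units, and Rac2 (4, 6 and 3 units). Among plakins and intermediate filament genes 7 of 12 held peaks. Macf1, a plakin like plectin, held 1 peak in each library at 10, 10 and 9 units, and Lmna reached 4, 7 and 10 units. Membrane and adhesion linkers had 10 of 18, led by Fermt3, an integrin activator of blood cells, with 4 peaks in each library of up to 6, 7 and 5 units, and Vcl, encoding vinculin (7, 3 and 3 units). At least 1 peak of Fermt3 also lay in the span of Trpt1, at least 1 of Coro7 in that of Vasn, at least 1 of Add1 in that of Mir7036b and at least 1 of Tmod1 in that of Gm52729.

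**Figure D4:**
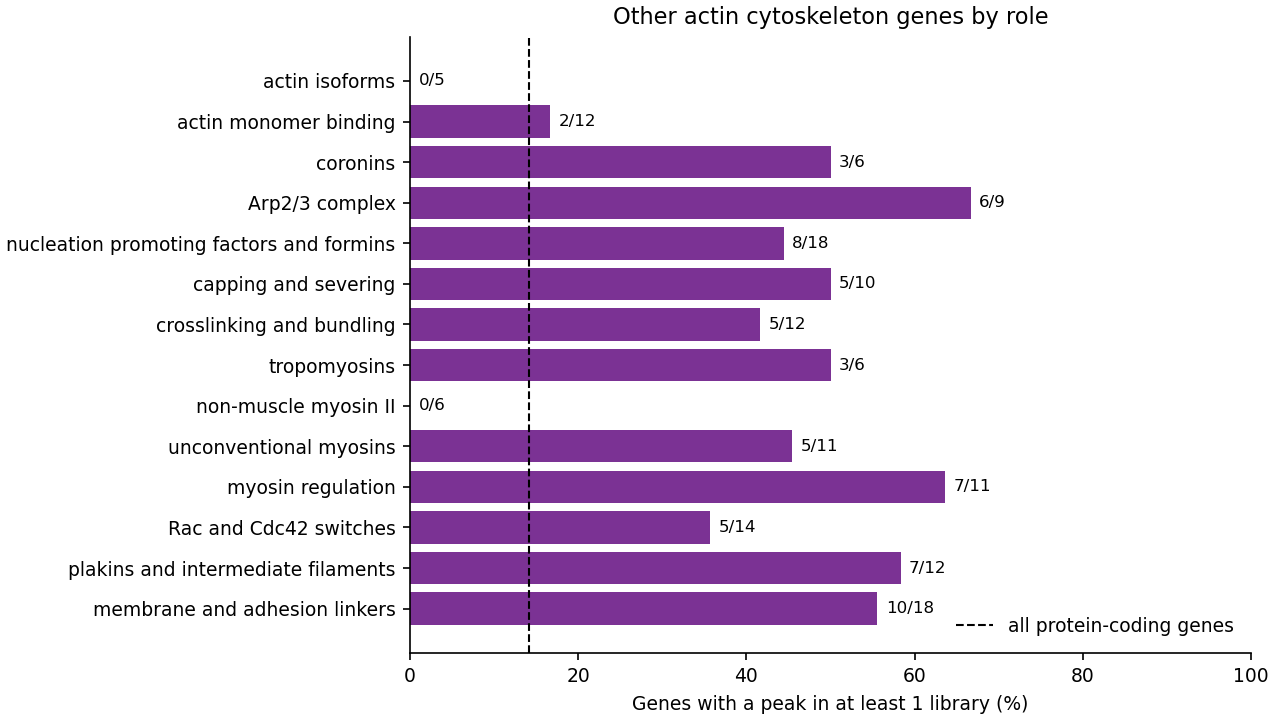
Percent of genes with a peak in at least 1 library for 14 roles of other actin cytoskeleton genes, with the number of genes beside each bar; the dashed line marks all protein-coding genes (14.1%). The bars run from 0 of 5 actin isoforms and 0 of 6 non-muscle myosin II chains to 6 of 9 Arp2/3 subunits.

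Likeness to other genes was measured as the distance over 6 values, the number of peaks and the tallest height in each of 3 libraries, both as log2 of 1 plus the value. Nearest to Actb were Col6a2 (distance 0.670; tallest heights 17, 28 and 15 units) and Pip5k1c (0.772; 16, 26 and 12 units). For Plec they were Cbfa2t3 (0.737; 11, 8 and 4 peaks) and Kmt2d (1.05; 8, 13 and 8 peaks). Nearest to Myh9 were Rab44 (1.42; 10, 9 and 5 peaks) and Nbeal2 (1.44; 5, 3 and 5 peaks).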

How the data were processed

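Tet2 CLIP peak lists of 3 libraries, 1 list per library, were used. Per the submitters' processing notes, cutadapt 1.9, STAR 2.4.0i and mm10 were used. A valley on both sides defined a peak, per the labels' protocols. No source used here gives the caller's thresholds. The values are a signal: the authors deposited a normalized height per peak, and all heights were whole multiples of a step of 1 over 19213, 18270 and 15431, within 0.05 of a step. Starts were read as 0-based and are printed 1-based; positions of peaks are the authors' values.

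Gene spans (49997, of which 21900 protein-coding) were taken from RefSeq (GRCm38.p6), and strands and starts from a RefSeq table of start windows, which lists 5 of the 7 genes, not Actb or Plec. It holds no exons. Peaks in over 1 span (561, 6.84%) counted for each gene. Loci joined peaks overlapping by at least 1 nt. Everything was computed with Python 3.11.15 and pandas 2.3.3, and the joining steps were tested on simulated peaks, where 100% of loci in 3 libraries were recovered. All results are descriptions, with SD over libraries, which may be partly technical because the labels name no separate animals.

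The members and lists were chosen with earlier results of these data known. Named genes are the 7 members, the 2 with the tallest peak in each role, and the 2 nearest in pattern to the 3 members with most peaks; others are named for their place beside or inside a member or as cell type markers.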

Additional observations from a re-analysis of the deposited data

How the results depend on the processing

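No paired analysis was possible because the libraries form 1 group. Of 49 recomputed values, 32 moved by less than the spread between libraries or, for counts, by less than 1.5 times, and 17 moved more. Assigning peaks by any overlap with a span and requiring 50% overlap for sharing moved nothing. With peaks of at least 5 units, the members had 11.7 peaks per library, 0.564% of the height, 8.96% of peaks shared with both other libraries, 1 locus in all 3 libraries, 3 members with a peak in every library, 11.9% of peaks in the outer 10% of the span, and 26 other cytoskeleton genes with a peak. With midpoints within 200 nt counted as shared, the shared share became 42.3% and the loci 10, and joining peaks within 100 nt also gave 10 loci. Under that 200 nt rule 29.1% of other peaks in protein-coding spans were shared, so members lay above them and not below as by overlap. Without peaks in over 1 span, 14.1% of peaks were shared and Pfn1 had no peak left, so 5 members had a peak in every library. Requiring a peak in all 3 libraries left 20 other cytoskeleton genes. With the outer 20% of the span, 26.7% of member peaks lay there. Matching values over other genes are not given for the cut of 5 units or the outer 20%. These values are therefore not to be set against the shares given above for all heights and the outer 10%. Leaving out each replicate, the shared share ran from 25.3% to 40.8% and the common loci from 7 to 12, both highest without replicate 3; with 2 libraries a peak has only 1 other library to match. Of the 84 member peaks, 35 stood at 3 units, near the lowest heights listed, and depth is unknown.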
